A study of Mus musculus with 8 samples.

Results

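The genes described here encode the machinery of intraflagellar transport (IFT) and the BBSome, together with the motors, chaperonin-like proteins and small GTPases that work with them. Members were taken by symbol from a table of polysome-associated RNA of the mouse main olfactory epithelium. They are every symbol made of Ift or Bbs and a number, plus 15 named symbols (Ttc8, Ttc21b, Wdr19, Wdr35, Traf3ip1, Cluap1, Kif3a, Kif3b, Kif17, Dync2h1, Dync2li1, Arl3, Arl6, Arl13b and Mkks). That gave 37 of the 21765 genes in the table. All 37 were measured in each of the 8 libraries and passed the filter on low values, a mean of at least 1 TPM (transcripts per 1000000).

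Intraflagellar transport carries cargo along the microtubules of a cilium. The IFT-B complex moves towards the tip with kinesin-2, and the IFT-A complex, with dynein-2, serves the return and the entry of membrane proteins. The BBSome is an adaptor that carries membrane proteins out of and within cilia, is built with the help of chaperonin-like proteins, and is recruited to membranes by the GTPase Arl6. Olfactory sensory neurons detect odours on long cilia, and mice lacking BBSome or transport genes are known to have fewer olfactory cilia and a poor sense of smell. Respiratory multiciliated cells next to the olfactory epithelium use the same genes.

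Tissue was treated with cycloheximide, which holds ribosomes on mRNA, at 100 µg/mL on dissection, and lysates were spun through sucrose gradients. Of about 42 gradient fractions, 27 to 34 were pooled as early (lighter) polysomes and 35 to 42 as late (heavier) polysomes. Wild-type (WT) mice were Mex3a flox/flox or flox/+ without Cre, and conditional knockout (cKO) mice were Mex3a flox/flox with Cre, so floxed alleles were common to both groups. Mex3a encodes an RNA-binding protein. The labels give no age or sex. There were 2 libraries in each of WT early, WT late, cKO early and cKO late, and the early and late library of a genotype and number came from 1 lysate. Nothing in the labels says how many mice made up a lysate, so p-values measure only the spread between these libraries.

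Levels are TPM scaled between libraries by median ratios, and inferred depth was 7776792 (cKO late replicate 2) to 12771079 reads (WT late replicate 2) per library. Mex3a stood at 89.0 to 119 scaled TPM in the WT and 10.95 to 21.3 in the cKO libraries. The library titled WT early replicate 2 carries the cKO genotype tag. It was kept as WT by its title, and some counts and medians that rest on it are also given without it. Values of single genes include this library. Its Mex3a level was the highest of the 8. Markers of mature olfactory neurons such as Omp and Adcy3 were present in every library, with 11 genes summing to 7356 to 13110 scaled TPM. Markers of immature neurons (7 genes, 2224 to 3113) and multiciliated cells (10 genes, 478.4 to 904.5) were present as well.

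Per unit of transcript length, the most abundant members were Arl3, Ift43 and Ift20, at means over the 8 libraries of 395, 272 and 179 scaled TPM. Bbs12, Bbs10 and Kif17 were the least abundant, at 5.90, 7.66 and 9.73. The range from lowest to highest mean was 67.0-fold. Between 34 and 2727 inferred reads lay behind a member's value in a library, fewest for Bbs12, with 34 to 79. Counting error therefore weighs most on Bbs12, Bbs10 and Mkks.

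The first comparison asked where on the gradient each transcript sat. Of the 37 members, 33 passed the test of late against early polysomes averaged over genotypes, with 21 of them higher in the late pool and 12 lower. Among all 16097 genes tested, 34.2% were called higher and 34.8% lower, so differing between fractions was common in this tissue. The members' median late-minus-early difference was 0.30 on the log2(scaled TPM + 1) scale, against -0.01 for all genes. Differences between fractions are differences in share of a library, relative to its median gene, and not amounts of RNA. All tests were made with limma over all genes, with Benjamini-Hochberg adjusted p-values and a threshold of 0.05.

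Both genotypes gave nearly the same division. In WT, 18 members were higher and 12 lower in late polysomes (all genes, 27.1% and 27.7%). In cKO, 19 were higher and 12 lower (all genes, 28.6% and 29.4%). Of these, 29 members were called in both genotypes, and all 29 went in the same direction in both. Over all genes 48.5% were called in both genotypes in the same direction, 7809 of the 7811 called in both, so this was the rule in these libraries. Every one of the 21 members called higher on average was higher in 4 of 4 lysates. Every one of the 12 called lower was lower in 4 of 4, and the remaining 4 were mixed. The calls were made from these same lysates, so this agreement adds no support to them. Early and late libraries did not overlap for 18 members higher in late polysomes (48.65%) and 12 lower (32.4%). Over all genes the shares were 31.4% and 31.1%. The WT count fell to 19 members (10 higher and 9 lower) without WT early replicate 2, the library with the conflicting tag, while the average over genotypes still gave 30 (18 higher and 12 lower).

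**Figure D1:**
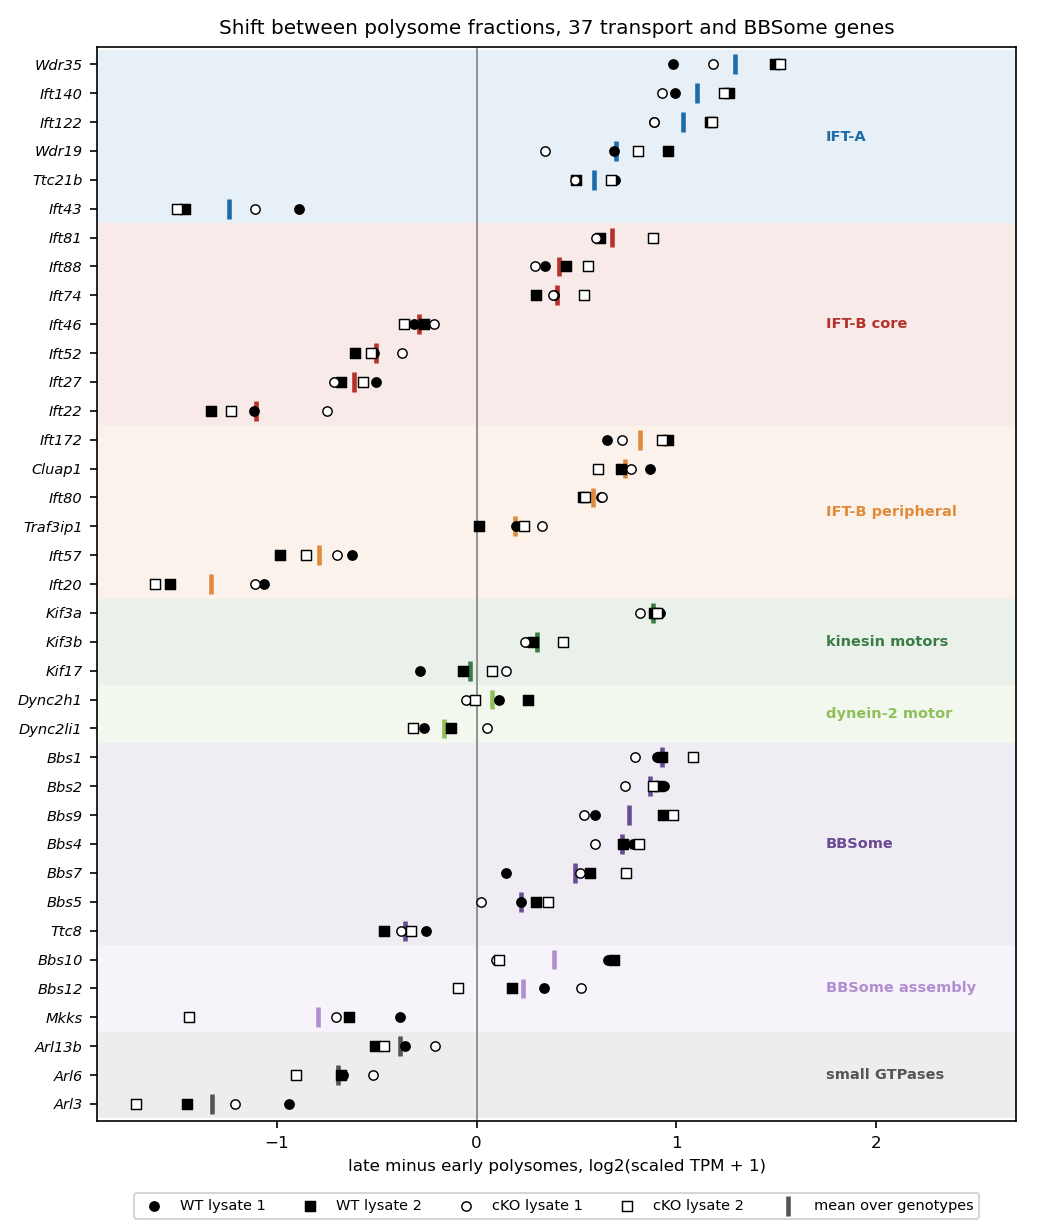
Late-minus-early difference in log2(scaled TPM + 1) for each of the 37 genes, grouped by role. Circles and squares are lysates 1 and 2, filled for WT and open for cKO, and the coloured bar is the mean over genotypes. Most IFT-A and BBSome genes lie to the right of 0 in all 4 lysates, and the 3 Arl GTPases lie to the left.

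Synthesis of a protein begins at the start codon. The bases around it are shown for the 5 members that were lowest and the 5 that were highest in late against early polysomes. These carry the contrast described next. Each line gives 9 bases of the 5′ leader, the start codon in capitals and 9 bases of coding sequence, 5′ to 3′ on the gene's strand, from GRCm38 with GENCODE models. The 5 lower members come first, from Ift20 to Mkks.
Ift20: gaaacagctATGgccaaggac
Arl3: ggcttgaggATGggcttgctc
Ift43: gccgcggcgATGgacgattta
Ift22: cggacagcgATGctgaaggct
Mkks: tgaagcaggATGtctcggtta
Wdr35: gttcccacgATGttcttctac
Ift140: tgcgtcatcATGgctctgtat
Ift122: gaaacggcgATGagggccgtg
Bbs1: cctgggaaaATGgctgcggcg
Kif3a: gcggccaccATGccgatcaat

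In all 10 the base at position -3 was A or G, the base most often found there in strong start sites. Over all members 34 of 37 (91.9%) had A or G at -3, against 84.1% of 14628 genes with a leader model, and 19 (51.4%) had G at position 4, against 52.3%. Of the sites shown, G at position 4 was present in 3 of the 5 lower and 2 of the 5 higher members.

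IFT-A was divided between its large subunits and its smallest one. Of its 6 members, 5 were higher in late polysomes and 1, Ift43, was lower. Wdr35, which encodes the subunit also called IFT121 (chr12:8973892-9028847 on GRCm38), had scaled TPM of 39.5 and 26.2 early against 79.0 and 75.7 late in WT, and 31.5 and 20.4 early against 72.85 and 60.3 late in cKO. Its late libraries all lay above its early libraries, and the difference of 1.30 (SE 0.16, adjusted p = 0.000174) was the largest rise among the members, 2.45-fold. Ift140 stood at 29.1 and 23.5 early against 58.9 and 58.0 late in WT, and 28.6 and 21.4 early against 55.3 and 51.8 late in cKO, again with no overlap, a difference of 1.11 (SE 0.11, adjusted p = 5.02e-05). Ift122 rose by 1.03 (SE 0.09, adjusted p = 2.83e-05). Wdr19 and Ttc21b, the other large subunits, differed by 0.70 (SE 0.13, adjusted p = 0.00152) and 0.59 (SE 0.12, adjusted p = 0.00209). The opposite was seen for Ift43 (chr12:86082541-86162459), which encodes a small IFT-A subunit. It had 381 and 409.7 early against 205.5 and 148 late in WT, and 356 and 379.5 early against 164 and 134 late in cKO, a difference of -1.24 (SE 0.12, adjusted p = 4.22e-05), so its early libraries held 2.36 times the level of the late ones. In every library Ift43 was also the most abundant IFT-A transcript.

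In the IFT-B core, 3 of 7 members were higher and 4 lower in late polysomes. The symbol rule left out IFT-B subunits with other names, such as Ttc30b, given with the partners below. Counts for IFT-B therefore do not cover the whole complex. Ift81 and Ift74, whose products bind tubulin together, differed by 0.68 (SE 0.12, adjusted p = 0.000891) and 0.40 (SE 0.07, adjusted p = 0.00094). Ift88, the subunit altered in the classic mouse model of defective cilia, had 69.3 and 67.0 early against 88.1 and 91.7 late in WT, and 62.1 and 49.3 early against 76.3 and 73.2 late in cKO, a difference of 0.41 (SE 0.08, adjusted p = 0.00223). The lower members included the Rab-like GTPases Ift22 and Ift27. Ift22 stood at 140.5 and 137 early against 64.2 and 53.9 late in WT, and 123 and 148 early against 72.7 and 62.4 late in cKO, which gave a difference of -1.11 (SE 0.09, adjusted p = 2.98e-05) with no overlap between fractions. Ift27 differed by -0.62 (SE 0.07, adjusted p = 9.83e-05), Ift52 by -0.51 (SE 0.07, adjusted p = 0.000207) and Ift46 by -0.29 (SE 0.07, adjusted p = 0.0051).

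Peripheral IFT-B subunits were likewise divided, with 4 of 6 higher and 2 lower. Ift172, the largest of them, differed by 0.82 (SE 0.18, adjusted p = 0.00327), Cluap1 by 0.74 (SE 0.08, adjusted p = 8.9e-05), Ift80 by 0.58 (SE 0.07, adjusted p = 0.000121) and Traf3ip1 by 0.19 (SE 0.07, adjusted p = 0.0268). Traf3ip1 passed in cKO (adjusted p = 0.0285) but not in WT, at 0.11 (adjusted p = 0.362). Ift20 (chr11:78536361-78541737) encodes the subunit that also sits at the Golgi and takes part in sorting ciliary membrane proteins. It had 244 and 268 early against 116 and 91.8 late in WT, and 259 and 249.6 early against 119.6 and 81.0 late in cKO. All 4 early libraries exceeded all 4 late ones, and the difference of -1.33 (SE 0.13, adjusted p = 4.87e-05) was the largest fall among the members, 2.51-fold. Ift57 differed by -0.79 (SE 0.08, adjusted p = 5.35e-05), from 91.5 and 109 scaled TPM in WT early to 59.1 and 54.8 in WT late libraries.

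The motors did not follow 1 pattern. The kinesin-2 subunits Kif3a and Kif3b were both higher in late polysomes. Kif3a rose from 59.4 and 57.7 to 113 and 108 scaled TPM in WT and from 54.9 and 50.9 to 97.7 and 96.2 in cKO libraries, a difference of 0.88 (SE 0.06, adjusted p = 2e-05), with the 4 lysates within 0.82 to 0.92. Kif3b differed by 0.30 (SE 0.07, adjusted p = 0.0046). Kif17, a kinesin-2 that has been tied to channel delivery in olfactory cilia, had differences of -0.28 and -0.07 in the WT lysates and 0.15 and 0.08 in the cKO lysates and was not called, at -0.03 (SE 0.09, adjusted p = 0.777). Neither dynein-2 subunit among the members was called. Dync2h1, the heavy chain and the longest member, had 28.2 and 18.1 early against 30.6 and 21.9 late in WT, and 26.8 and 17.5 early against 25.7 and 17.4 late in cKO, so the early and late libraries overlapped at 0.08 (SE 0.20, adjusted p = 0.754). Replicate 1 exceeded replicate 2 for Dync2h1 in each group. Dync2li1, the light intermediate chain, was at -0.17 (SE 0.09, adjusted p = 0.133), negative in 3 of 4 lysates. Dynein-2 subunits outside the members, named after their values were seen, were called in both directions. The intermediate chain Wdr60 was higher in late polysomes, at 0.72 (adjusted p = 0.000132). The intermediate chain Wdr34 and the light chain Tctex1d2 were lower, at -0.46 (adjusted p = 0.000473) and -1.26 (adjusted p = 8.79e-05).

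Of the 7 BBSome subunits among the members, 6 were higher in late polysomes and 1, Ttc8 (also called BBS8), was lower. Bbs1, which binds Arl6, had 19.7 and 23.2 early against 37.7 and 45.1 late in WT, and 23.8 and 20.7 early against 41.9 and 45.0 late in cKO, a difference of 0.93 (SE 0.10, adjusted p = 6.01e-05) with no overlap. Bbs2 and Bbs9 differed by 0.87 (SE 0.10, adjusted p = 9.61e-05) and 0.76 (SE 0.11, adjusted p = 0.000398), and Bbs4 and Bbs7 by 0.73 (SE 0.07, adjusted p = 4.05e-05) and 0.49 (SE 0.10, adjusted p = 0.00236). Bbs7 passed in cKO (adjusted p = 0.00543) but not in WT, at 0.36 (adjusted p = 0.0629). Bbs5 passed the average over genotypes narrowly, at 0.22 (SE 0.09, adjusted p = 0.0484), and passed in neither genotype alone. Ttc8 had 60.6 and 63.6 early against 50.7 and 45.8 late in WT, and 75.4 and 67.3 early against 57.7 and 53.4 late in cKO, a difference of -0.36 (SE 0.07, adjusted p = 0.0025). Its fractions did not overlap. The small BBSome subunit Bbip1, which the symbol rule left out and which was named after its values were seen, was lower still, at -1.45 (SE 0.11, adjusted p = 2.38e-05) with a coding length of 201 nt.

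The chaperonin-like genes that assemble the BBSome went separate ways. Mkks (BBS6, chr2:136873780-136891389) had 17.3 and 18.4 early against 13.0 and 11.5 late in WT, and 16.9 and 19.7 early against 9.98 and 6.63 late in cKO, a difference of -0.79 (SE 0.13, adjusted p = 0.000729). Its differences were -0.39 and -0.64 in the WT lysates and -0.70 and -1.44 in the cKO lysates, so lysate 2 of cKO lay far below the rest. Bbs10 rose by 0.39 (SE 0.13, adjusted p = 0.0253) on average, with 0.66 and 0.69 in the WT lysates and 0.10 and 0.11 in the cKO lysates, and was called in WT but not in cKO. Bbs12 was not called, at 0.23 (SE 0.14, adjusted p = 0.164).

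All 3 Arl GTPases were lower in late polysomes. Arl3 (chr19:46531096-46573198), which releases lipid-anchored cargo inside the cilium, had 526 and 616.5 early against 273.5 and 225 late in WT, and 539 and 575 early against 232 and 176 late in cKO. The difference was -1.33 (SE 0.11, adjusted p = 3.17e-05), a 2.51-fold fall. Arl6, which recruits the BBSome, differed by -0.69 (SE 0.09, adjusted p = 0.000168), and Arl13b, which activates Arl3, by -0.39 (SE 0.07, adjusted p = 0.00171). In each of the 3 genes every early library exceeded every late one.

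**Figure D2:**
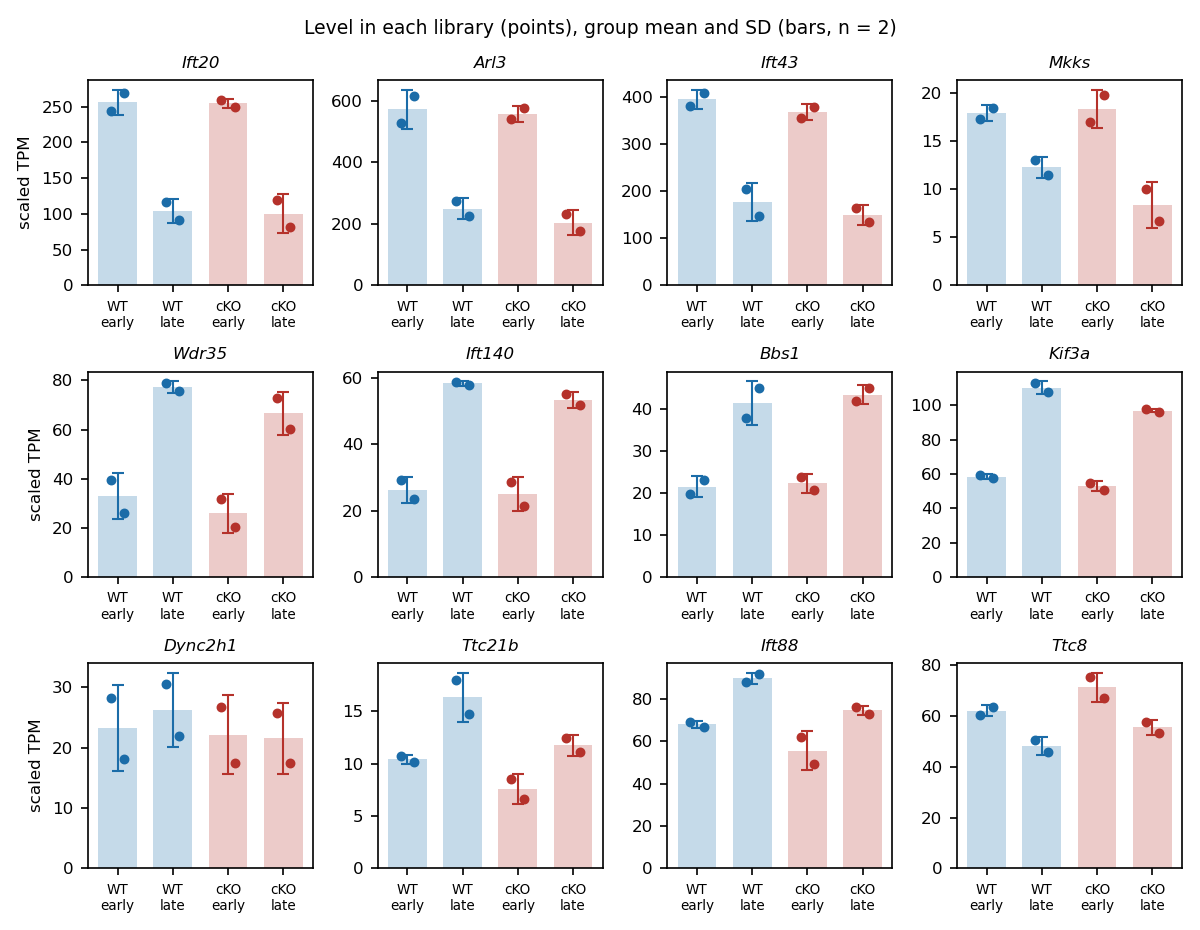
Scaled TPM of 12 of the genes in each library (points), with the group mean and SD (bars, n = 2), in blue for WT and red for cKO. Each vertical axis starts at 0. Ift20, Arl3 and Ift43 are lower and Wdr35, Ift140, Bbs1 and Kif3a higher in late polysomes of both genotypes, while the fractions of Dync2h1 overlap.

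Most called members showed larger shifts in the lysates numbered 2 than in those numbered 1. Of the 33 called members, 24 moved further in lysate 2 than in lysate 1 of WT and 28 in cKO, 22 of them in both. The same count over all genes is not given, so this cannot be called particular to the members. Arl3 shows this, with differences of -0.94 and -1.45 in the WT lysates and -1.21 and -1.71 in the cKO lysates. Members' median differences were 0.26 in lysate 1 and 0.30 in lysate 2 of WT, against 0.29 and 0.36 in those of cKO, so the genotypes overlapped. No label says whether lysates of a number were processed together.

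The members that fell and those that rose differed in coding length. An mRNA with a longer coding sequence has room for more ribosomes, so length was set beside the shift, using 1 GENCODE transcript per gene. Coding lengths of the members ran from 396 nt (Ift20) to 12918 nt (Dync2h1), with a median of 1875 nt against 1314 nt for all tested genes. Of the 7 members under 1000 nt (Ift20, Arl3, Ift22, Ift27, Arl6, Ift43 and Ift46), all 7 were lower in late polysomes. Their median difference was -1.11, against -0.59 for all 5235 tested genes under 1000 nt. Of the 12 members from 1000 to 2000 nt, 6 were higher and 5 lower, with a median of 0.01 against 0.15 for 5354 genes. Of the 18 members of 2000 nt or more, 15 were higher and 0 lower, with a median of 0.63 against 0.45 for 4083 genes. The share of all genes called within each length range is not given. The ranges are wide, so their medians are not matched for length. Apart from Ift46 (903 nt), the members under 1000 nt had only 396 to 585 nt. From the median of the 401 genes nearest in length, Arl3 lay -0.48, Ift43 -0.46, Ift22 -0.28, Ift20 -0.14 and Ift46 -0.06. Arl6 lay 0.13 and Ift27 0.21 from theirs.

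Across the 37 members the shift and coding length had a Spearman's rho of 0.71 (Pearson's r of 0.73 with log2 length), and across 14672 tested genes rho was 0.64. These are descriptions across genes of the same 8 libraries, and genes are not independent replicates. Shorter members were also more abundant (rho of -0.68 between coding length and mean scaled TPM), and abundance itself had a rho of -0.45 with the shift. The length of the 5′ leader had a rho of 0.05. Whether length or abundance accounts for the order was not tested.

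**Figure D3:**
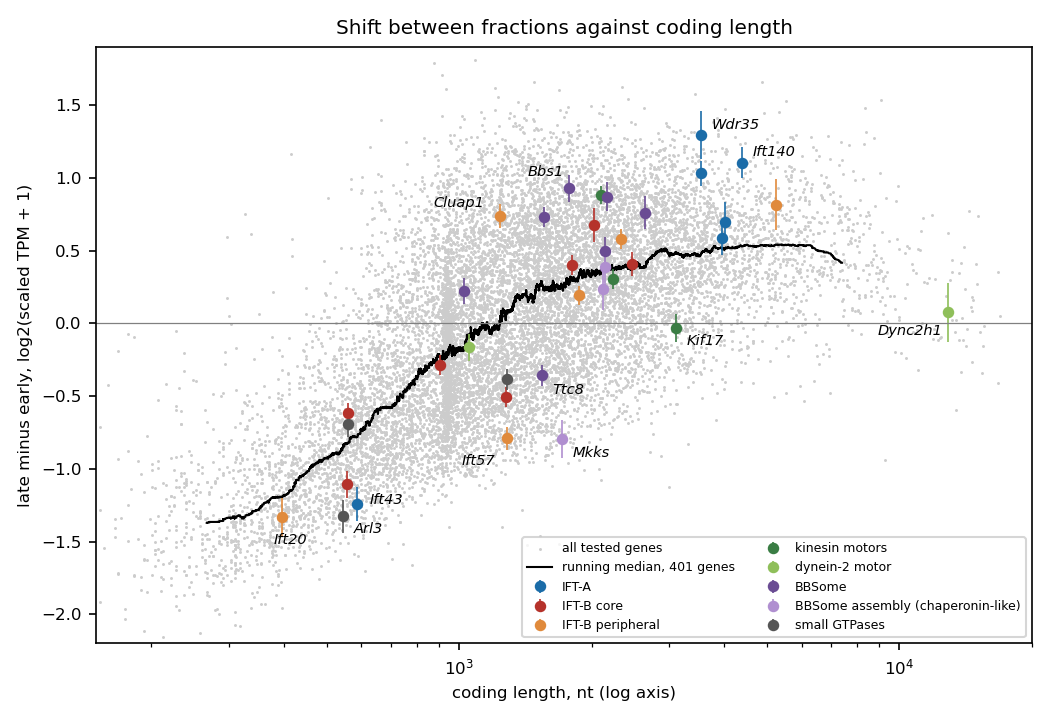
Late-minus-early difference in log2(scaled TPM + 1), averaged over genotypes, against coding length on a log axis. Grey dots are all tested genes, the black line is their running median over 401 genes, and coloured points are the 37 genes with their SE. The 7 members under 1000 nt all lie below 0, and Mkks, Ift57 and Ttc8 lie far below the line at their length.

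Set against the median of the 401 genes nearest in coding length, 21 members lay above and 16 below, with a median of 0.07. Wdr35 (0.82), Cluap1 (0.74) and Bbs1 (0.64) lay furthest above genes of their length. Cluap1 shares 22.4% of its exonic bases with Gm20695 on the same strand and 16.1% with 1700016D08Rik on the opposite strand, so reads of these genes may not be told apart. Mkks (-1.05), Ift57 (-0.87) and Ttc8 (-0.62) lay furthest below, followed by Ift52 (-0.55) and Kif17 (-0.51). Dync2h1, with the longest coding sequence, was -0.34 from its length median, and the short genes Ift27 (0.21) and Arl6 (0.13) were above theirs although both fell. IFT-A illustrates the range, since Ift43, with 585 nt, lay -0.46 from its length median while Ift140, with 4392 nt, lay 0.57 from its own.

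Upstream start codons were counted next, since upstream reading frames have been described in human MKKS. An ATG upstream of the coding sequence was present in the leader of 18 of 37 members (48.65%), against 54.0% of genes with a leader model. The Mkks leader of 979 nt held 18, a number reached or passed in 1.14% of genes (167 of 14628), and 17 of them opened a reading frame that closed within the leader. The longest, 59 codons, starts at base 369 of the leader in the following window, with its ATG in capitals.
Mkks upstream frame: caacagactATGagctttcag

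Over all genes, the 764 with 8 or more upstream ATG had a median of -0.15 from their length median, and the 6730 with 0 had 0.08, while Mkks was at -1.05. Ift20, with 8 in a leader of 447 nt, lay -0.14 from its length median. Ift57, Ttc8 and Ift52, also well below theirs, had 0. Mkks overlaps AL731706.1 on the same strand over 29.3% of its exonic bases, so part of its signal may belong to that gene. What part either plays in the position of Mkks was not tested.

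Around the annotated start sites, the letters GTTGCCNNG, part of the X-box bound by RFX factors of ciliary genes, were searched on both strands from 250 bases before to 50 after the start site (RefSeq, GRCm38.p6). RefSeq promoters were matched for 33 of the 37 members. Of these 33, 10 (30.3%) held the motif in a window, against 6.45% of 11970 tested genes with such windows of 300 bases. Some genes have more than 1 window, and by window the shares were 29.4% of 34 and 5.49% of 15038. The looser spelling GTTNCCNNG was in 51.5% of members and 20.85% of genes, GTTGCC in 42.4% and 14.65%, and GTNNCCNNG in 78.8% and 58.4%. The spellings overlap one another, and a match is a description of letters and not of binding. Sites are shown for a core IFT-B gene, a peripheral one and a BBSome gene, to show the motif across roles, with the motif in capitals on its own strand. They lie at chr15:78174072-78174100 (minus strand), chr1:91494579-91494607 (plus) and chr3:36613492-36613520 (minus).
Ift27: gttgatgatgGTTGCCAGGagcctgtttg
Traf3ip1: gcgcgcgtccGTTGCCAAGgccgcgcggc
Bbs7: atgcgccccgGTTGCCTTGgaaaccggcc

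The matches of Kif17 and Dync2h1 stood at RefSeq starts that lie inside the GENCODE genes, 11747 and 7424 bases from their 5′ ends. Motif holders stood on both sides of the gradient comparison, with Wdr35 and Bbs1 among those higher and Ift27 and Ift57 among those lower in late polysomes.

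Other genes of the pathway were taken from lists of IFT and BBSome partners and of the transition zone, the gate at the base of the cilium. Of 32 tested partners, 7 were higher and 20 lower in late polysomes, with a median of -0.47. Ttc30b (an IFT-B subunit, 1.07), Kifap3 (the accessory subunit of kinesin-2, 0.82) and Ttc30a1 (0.76) rose most. Dynein light chains Dynlt1b (-2.21), Dynll1 (-1.85) and Dynlrb1 (-1.73), with coding lengths of 339, 267 and 288 nt, fell most. Of 24 tested transition zone genes, 6 were higher and 11 lower, with a median of -0.26. Nphp4 (1.06), Mks1 (0.88) and Cc2d2a (0.69) rose most, and Tmem216 (-1.28), Tmem218 (-1.28) and Tmem107 (-1.23) fell most.

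Cell type markers moved between fractions too. Of the multiciliated list, 2 of 10 were higher and 6 lower in late polysomes, of the mature neuron list 8 of 11 higher and 3 lower, and of the sustentacular (supporting) cell list 5 of 5 higher. Early and late pools came from the same lysates, and the part of cell type in the members' shift was not tested.

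The second comparison asked whether members differed between cKO and WT. By limma 0 of 37 members passed in early polysomes, with 5 at an unadjusted p under 0.05, and 0 passed in late polysomes, with 2. Among all genes 0.0435% passed in early and 0.0124% in late polysomes, and 6.63% and 9.32% had an unadjusted p under 0.05. When both fractions of a lysate were averaged, 0 passed and 4 were under 0.05 unadjusted (all genes, 0.00621% and 11.3%). A test with voom on inferred reads called 0 members as well, with 5, 4 and 11 under 0.05 unadjusted in early, late and lysate-mean comparisons. Over all genes voom called 0.0746%, 0.0933% and 0.361%, with 7.68%, 8.89% and 15.2% under 0.05 unadjusted. In bulk tissue, fewer cells of a type and less RNA per cell cannot be told apart.

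Ttc21b, the IFT-A subunit IFT139, had the largest early difference. It stood at 10.7 and 10.1 in WT and 8.56 and 6.58 scaled TPM in cKO early libraries, and late values of 18.0 and 14.7 for WT stood against 12.45 and 11.1 for cKO. Both cKO libraries lay below both WT libraries in each fraction, at -0.42 (SE 0.17, unadjusted p = 0.0331, adjusted p = 0.724) in early and -0.44 (SE 0.17, unadjusted p = 0.0286, adjusted p = 0.485) in late polysomes. For Ift88 the WT early values of 69.3 and 67.0 stood against 62.1 and 49.3 for cKO, a difference of -0.29 (SE 0.12, unadjusted p = 0.0347, adjusted p = 0.724), and the late difference was -0.26 (SE 0.12, unadjusted p = 0.053, adjusted p = 0.54). Kif17 differed in early polysomes by -0.33 (SE 0.13, unadjusted p = 0.0374, adjusted p = 0.724), from 11.4 and 10.8 to 8.70 and 8.57.

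In late polysomes Mkks had the smallest p, with 13.0 and 11.5 scaled TPM in WT and 9.98 and 6.63 in cKO libraries, at -0.53 (SE 0.18, unadjusted p = 0.0202, adjusted p = 0.461). On lysate means the smallest p-values were those of Ift88 at -0.28 (SE 0.08, unadjusted p = 0.0165, adjusted p = 0.382), Ttc21b at -0.43 (SE 0.13, unadjusted p = 0.0171, adjusted p = 0.383) and Kif3b at -0.20 (SE 0.07, unadjusted p = 0.0331, adjusted p = 0.41). Ttc8 went the other way, at 0.20 (SE 0.08, unadjusted p = 0.0418, adjusted p = 0.426), with early WT values of 60.6 and 63.6 below the 75.4 and 67.3 of cKO. None of these differences passed the threshold over all genes.

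Although no member passed, most lay below 0. In early polysomes 30 of 37 differences were negative (81.1%, against 48.65% of all genes), with a median of -0.09 against 0.01. Late polysomes had 31 of 37 negative (83.8%, against 50.8%), with a median of -0.10 against -0.0043, and lysate means likewise 31, with a median of -0.11. Of the 32 tested partners, 15 were negative in early polysomes (median 0.02), 25 in late (median -0.11) and 24 on lysate means (median -0.06). Of the 24 tested transition zone genes, 11, 14 and 14 were negative. Lying mostly below 0 in late polysomes was therefore not particular to the members. All 6 IFT-A genes, all 3 kinesins, both dynein-2 genes and all 3 Arl GTPases among the members were negative in both fractions. The other roles were mixed. In early and late polysomes, 5 and 5 of 7 BBSome genes and 6 and 4 of 7 IFT-B core genes were negative. So were 4 and 5 of 6 peripheral IFT-B genes and 1 and 3 of 3 chaperonin-like genes. Some differences lay well within their SE, such as that of Arl6 in early polysomes, at -0.03 (SE 0.12). The WT and cKO libraries did not overlap and cKO was lower for 11 members in early and 14 in late polysomes (all genes, 17.5% and 20.6%), and cKO was higher for 3 in each (all genes, 19.6% and 20.1%). The fractions share lysates, so they are not independent of each other.

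The late median rested on cKO late replicate 2, the library of lowest depth. It was -0.02 (22 of 37 negative) without that library and -0.17 without cKO late replicate 1. On lysate means it was -0.06 without cKO lysate 2 and -0.20 without cKO lysate 1. In early polysomes, it was -0.10 with 26 of 37 negative without WT early replicate 2, the library with the conflicting tag, and -0.05 without cKO early replicate 2.

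Of the cell type lists, some lay mostly to 1 side of 0 and others were mixed. All 7 immature neuron markers were negative in early polysomes (median -0.12) and 6 of 7 in late, and their sums were 2420 and 2435 in WT against 2224 and 2235 scaled TPM in cKO early libraries. Late libraries summed to 3113 and 2941 (WT) against 2650 and 2686 (cKO). Of 11 mature neuron markers 7 were negative in early polysomes (median -0.06), 8 in late (median -0.10) and 10 on lysate means (median -0.07). Of the multiciliated list, 9 of 10 were above 0 in early polysomes (median 0.11) and 8 of 10 in late (median 0.06), with early sums of 786 and 823.2 in WT against 869.8 and 904.5 in cKO. Sustentacular markers were 4 of 5 below 0 in early and 4 of 5 above 0 in late polysomes. Globose basal cell markers were 4 of 6 above 0 in early and 3 of 6 in late, and horizontal basal cell markers 1 of 4 and 2 of 4. The 1 red blood cell marker tested was above 0 in both, at 0.45 and 0.48. None of the markers in the immature, mature and multiciliated lists was at 0 throughout. Their part in the members' differences was not tested.

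**Figure D4:**
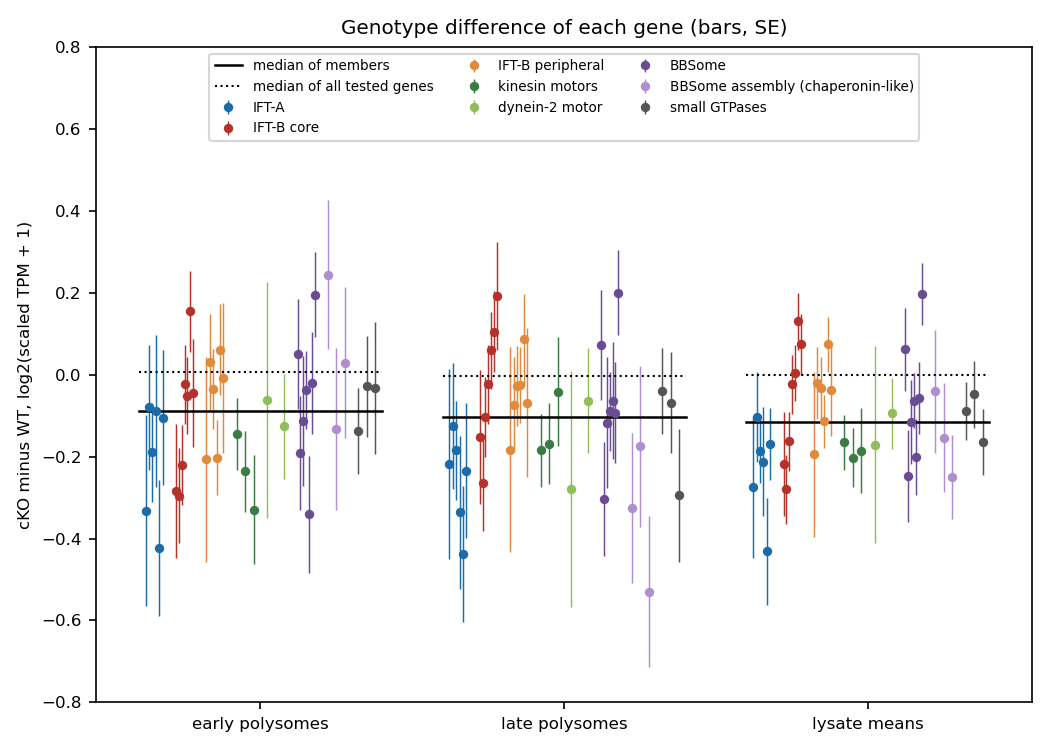
Difference of cKO from WT in log2(scaled TPM + 1) for each of the 37 genes, coloured by role, with its SE, in early polysomes, late polysomes and lysate means. Solid lines are the medians of the 37 genes (-0.09, -0.10 and -0.11) and dotted lines those of all tested genes, and most points lie below 0.

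The third comparison asked whether the shift between fractions differed between genotypes. In the interaction 0 of 37 members passed by limma and 0 had an unadjusted p under 0.05 (all genes, 0.00621% and 2.8%), while voom on inferred reads gave 0 and 1 (all genes, 0.0% and 2.46%). The median interaction was -0.0004, with 18 members above and 19 below 0. The smallest p-values belonged to Bbs10 at -0.57 (SE 0.26, unadjusted p = 0.057, adjusted p = 1), Mkks at -0.56 (SE 0.26, unadjusted p = 0.0636, adjusted p = 1) and Kif17 at 0.29 (SE 0.19, unadjusted p = 0.163, adjusted p = 1). Bbs10 shifted by 0.66 and 0.69 in the WT lysates and 0.10 and 0.11 in the cKO lysates, on 68 to 127 inferred reads a library.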

How the data were processed

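RNA of early and late polysomes of the main olfactory epithelium was measured in 8 libraries, 2 for each genotype and fraction, made with a stranded total RNA kit for low input. The authors deposited TPM for 21765 gene symbols, with each library summing to 1000000. The submitters' processing notes name FastQC, cutadapt, STAR, DESeq2 and mm10, without versions or roles. The counting method, its use of strand and the annotation are not given in the sources used here, and the Cre line is not reported here.

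Libraries were scaled by median ratios, with factors from 0.9301 to 1.064. Genes whose deposited TPM averaged 1 or more (16097) were fitted as log2(scaled TPM + 1) with limma 3.58.1 in R 4.3.3 (4 groups, empirical Bayes with trend). Adjusted p-values were two-sided, by the Benjamini-Hochberg method, over all genes. Fold changes on this scale understate the change of low genes. Whole reads were inferred from TPM steps for 19783 of 19783 genes above 0 in at least 2 libraries (100%, tolerance 0.001), to show depth and for an alternative test with voom. On simulated libraries with 200 genes changed 3-fold, the test recovered 197 in WT, 195 in cKO and 200 in the average of late against early, with 15, 17 and 20 false calls. It recovered 196, 195 and 200 in early, late and lysate-mean genotype comparisons, with 20, 30 and 32 false calls, and 159 in the interaction, with 15. The share of false calls was thus above the nominal 0.05 in each, at an assumed dispersion of 0.02. In the real average of late against early, 34.2% of genes were called higher and 34.8% lower. That is a far larger part than was changed in the simulation, so its share of false calls cannot be carried over. Between genotypes, the largest member difference was -0.53 (Mkks, late polysomes), well under 3-fold. Recovery of changes of that size was not simulated. Calls close to the threshold, such as that of Bbs5, remain narrow ones.

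Early and late libraries of a number carry 1 lysate name, so they are paired by source. Their deviations from group means correlated at 0.0864 in WT and 0.0503 in cKO across genes. Coding lengths, leaders and positions came from GENCODE vM21 on GRCm38, with 1 transcript per gene (APPRIS principal, then longest coding sequence), for all 37 members and 91.15% of tested symbols. The alternatives were followed gene by gene for up to 5 rising and 5 falling members of largest change per comparison and, where none passed, the 3 of smallest p, the rule for members with full statistics. Further members are given with their difference, SE and p to account for all 37. Members and lists were chosen with earlier results of these data known.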

Additional observations from a re-analysis of the deposited data

How the results depend on the processing

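Across the alternatives run (pseudocounts of 0.1 and 0.5, a minimum mean TPM of 5 or none, unscaled TPM, quantile normalization, no trend, voom on inferred reads, replicate blocks, only the libraries compared, and each library left out), 0 members were called between genotypes or in the interaction, and the average of late against early gave 30 to 33. With unscaled TPM the members' median late-minus-early difference was 0.38 in WT, 0.41 in cKO and 0.42 on average, while that of all genes was 0.08, 0.10 and 0.09. The split of calls was then 20 higher and 9 lower in WT, and 19 and 9 in cKO. Quantile normalization gave medians of 0.31, 0.38 and 0.35. Leaving out 1 library moved these medians between 0.27 and 0.34 in WT, 0.26 and 0.36 in cKO, and 0.28 and 0.36 on average. It moved the number called between 19 and 30 in WT (19 without WT early replicate 2, where 1 library is left and is assumed to vary like the other groups) and between 23 and 31 in cKO. The genotype median ranged from -0.169 to -0.0197 in late polysomes and from -0.196 to -0.0566 on lysate means, and the interaction median from -0.0865 to 0.0573. For all of these the cause was not tested. Counts over all genes moved as well, from 8827 to 5866 in late against early of WT without WT early replicate 2, and between genotypes from 7 to a range of 0 to 12 in early, from 2 to 0 to 15 in late, from 1 to 0 to 79 on lysate means, and from 1 to 0 to 7 in the interaction. The members followed gene by gene (up to 5 rising and 5 falling per comparison, or the 3 of smallest p) kept their direction and their side of the threshold in each alternative, and members outside that rule, such as Bbs5, were not followed singly.

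With the lysate as a replicate block, 28 members were called in WT, 30 in cKO and 31 on average, so pairing changed no count by over 1.5 times. WT and cKO libraries share a number but no stated source, and the correlation of their deviations was 0.331 (early) and 0.142 (late). With the number as a replicate block, the fit called 0 members, with 7, 5 and 16 at an unadjusted p under 0.05 in early, late and lysate-mean comparisons (all genes, 8.43%, 11.8% and 21.2%). Depth limits the least abundant members, with 34 to 79 reads for Bbs12.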
